A study of Mus musculus with 4 samples.

Results

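The 46 genes described here encode the proteins that copy DNA in S phase: the origin recognition and licensing factors, the replicative helicase and the factors that switch it on, the DNA polymerases, the sliding clamp and its loader, the enzymes that finish the lagging strand and supply nucleotides, the chromatin factors that follow the fork, and the cyclins and transcription factors that start the phase. They were chosen by name, with earlier results of these data known, and each was read from the probe set that carried its symbol alone. All 46 were found among 19938 genes with such a probe set. All 46 reached the floor of 5.68 on at least 1 array, where the floor is the median value of all such probe sets and 10239 genes reached it. Expression was measured on 4 Affymetrix arrays of mouse dendritic cells (DCs), the antigen-presenting cells that prime T cells. The DCs were grown for 8 days from C57BL/6 bone marrow in 200 ng/ml Flt3-L, the ligand of the receptor that supports DC progenitors. The genotypes were miR-142+/+ (wt) and miR-142-/- (ko), and B220- CD11c+ cells were sorted into CD4-equivalent DCs (CD172+ CD24low CD11b+) and CD8-equivalent DCs (CD172- CD24+ CD11blow). Each of the 4 groups was 1 array, so the groups have no replicates. The labels do not give the number of mice or cultures behind an array, nor which part of the Mir142 locus was removed.

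A dividing cell loads the ring-shaped Mcm helicase onto origins in G1 phase and activates it in S phase, when polymerases copy both strands. Most genes of this machinery are transcribed in a wave at the G1/S transition under E2F transcription factors. Their mRNA level in a bulk sample can therefore rise with the share of cells that are cycling. Mature conventional DCs divide little, whereas their bone marrow precursors proliferate in Flt3 ligand cultures. In such bulk RNA, more cells in S phase and more mRNA per cell cannot be told apart.

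The microRNA that distinguishes the genotypes is shown here because it is what the knockout removes. Its mature forms are printed from RefSeq (GRCm38.p6), 5′ to 3′, with the seed (bases 2 to 8) in capitals.
mmu-miR-142a-5p (chr11:87756867-87756887, plus strand): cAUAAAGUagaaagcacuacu
mmu-miR-142a-3p (chr11:87756903-87756925, plus strand): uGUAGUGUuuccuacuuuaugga

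The probe set of Mir142 read 10.37 and 9.87 on the wt CD4- and CD8-equivalent arrays and 4.92 and 4.79 on the ko arrays, below the floor. Sirpa, which encodes CD172a, and Itgam, which encodes CD11b, were lower on both CD8-equivalent arrays, and Cd24a was higher on both, as the gates require. The conventional DC genes Itgax, Zbtb46, Flt3, H2-Ab1 and Ciita all lay above the floor on every array. Array medians over all probe sets ran from 5.87 to 5.94, and 9774 to 9821 genes reached the floor on an array.

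The replication genes stood higher in the CD8-equivalent DCs than in their CD4-equivalent counterparts, in wt and in ko. In limma's additive model of subset and genotype, 40 of the 46 members rose in CD8-equivalent DCs and 0 fell (Benjamini-Hochberg adjusted p under 0.05 over all 10239 genes), where 7.98% of all genes tested rose and 6.35% fell. The median difference over the 46 was 0.92 on the log2 scale, against 0.08 over all genes tested. On both CD8-equivalent arrays 45 of 46 members read higher than on both CD4-equivalent arrays, against 37% of all genes. E2f2 was the exception. The count called was 35 after cyclic loess and 30 when genes below the floor were kept in the fit, where Ccne1, Cdt1, Mcm4, Mcm6, Mcm7, Orc1, Pole, Prim2, Rfc2 and Tyms missed the threshold (adjusted p = 0.051 to 0.099). In this model wt and ko serve as the repeats of the subset comparison and 1 residual degree of freedom is left. That residual is how unequal the subset differences of wt and ko are, and limma weighs it with the residuals of all genes tested. The p-values therefore measure no spread between replicates of a group, and the scatter of these 4 arrays may be technical.

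In wt alone, 45 of 46 members lay above 0 in CD8-equivalent minus CD4-equivalent DCs, where 54.8% of all genes compared did, and the median difference was 0.73. Only Gins1 and Rrm2 reached a log2 difference of 1, which is 2-fold, against 2.1% of all genes compared. In ko, 45 of 46 lay above 0 (62.8% of all genes compared) with a median of 1.07, and 29 were at least 2-fold higher (3.39% of all genes compared). The ko count depends on the scaling, since 18 members reached 2-fold after cyclic loess and 19 after centring each array on its 75th percentile. The median of all genes in this comparison moved from 0.11 as deposited to 0.01 and -0.02 under these scalings, and the members' median moved with it, from 1.07 to 0.94 under both.

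**Figure D1:**
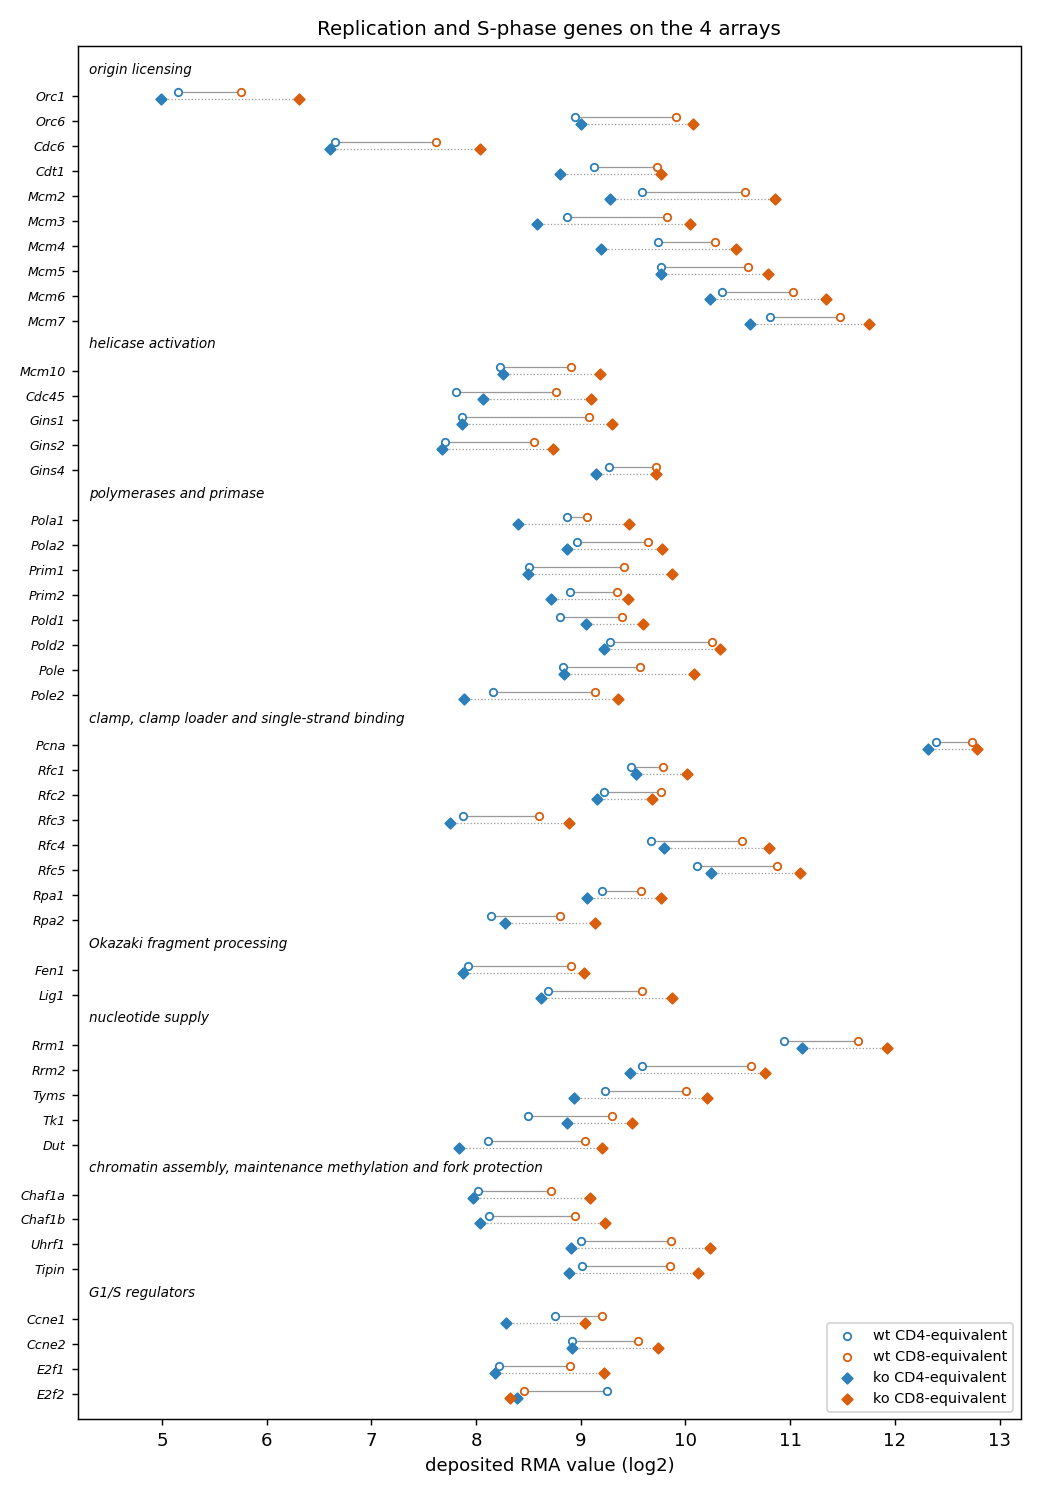
Deposited RMA value (log2, horizontal axis) of each of the 46 replication genes on the 4 arrays, grouped by role; open circles are wt, filled diamonds ko, blue CD4-equivalent and orange CD8-equivalent DCs, and a line joins the arrays of a genotype. The orange symbols lie to the right of the blue ones for every gene except E2f2; values of different genes are not comparable, since each comes from its own probes.

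Origin licensing marks where replication can begin: Orc1 and Orc6 belong to the origin recognition complex, and Cdc6 and Cdt1 bring the Mcm2 to Mcm7 ring to it. All 10 licensing genes rose in CD8-equivalent DCs. Mcm2 read 9.58 and 9.28 on the wt and ko CD4-equivalent arrays, and 10.57 and 10.86 on the wt and ko CD8-equivalent arrays. The lower CD8-equivalent value of Mcm2 therefore lay well above its higher CD4-equivalent value. Its subset difference was 0.98 in wt and 1.58 in ko (1.28 ± 0.18 (SE) over both, adjusted p = 0.017), the largest of the licensing genes. Mcm3 read 8.87 and 8.58 in CD4-equivalent and 9.82 and 10.04 in CD8-equivalent DCs of wt and ko, a difference of 1.21 (adjusted p = 0.017).

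The other helicase subunits followed the same order of arrays. The differences in wt and ko were 0.55 and 1.29 for Mcm4, 0.82 and 1.03 for Mcm5, 0.68 and 1.11 for Mcm6 and 0.67 and 1.14 for Mcm7. Every Mcm2 to Mcm7 gene was thus higher in CD8-equivalent DCs by more in ko than in wt. Mcm4 had the highest adjusted p of the ring (0.046), and after cyclic loess it missed the threshold (adjusted p = 0.053).

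Among the loading factors, Cdc6, an ATPase that is degraded outside its window in the cycle, read 6.66 and 6.61 in CD4-equivalent and 7.61 and 8.04 in CD8-equivalent DCs of wt and ko. This was 1.94-fold in wt and 2.70-fold in ko (adjusted p = 0.016). Cdt1, which the replication inhibitor geminin binds, differed by 0.60 and 0.97 (adjusted p = 0.029). Orc6 differed by 0.96 and 1.07 (adjusted p = 0.014). Orc1, the cell-cycle-regulated subunit of the recognition complex, read 5.16 and 4.99 on the CD4-equivalent arrays, below the floor, and 5.76 and 6.31 on the CD8-equivalent ones, so its difference (0.96, adjusted p = 0.040) is measured against values near background.

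Helicase activation turns the loaded ring into a moving fork: Cdc45 and the GINS complex join the ring, and Mcm10 is needed for it to unwind DNA. Of these 5 genes, 4 rose in CD8-equivalent DCs. Gins1 had the largest subset difference of all 46 members. It read 7.87 and 7.86 on the wt and ko CD4-equivalent arrays and 9.08 and 9.29 on the CD8-equivalent arrays, 2.32-fold in wt and 2.70-fold in ko (1.32 ± 0.13 (SE), adjusted p = 0.0085). The CD4-equivalent values of Gins1 agree to within 0.01, and both CD8-equivalent values lie far above them.

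Cdc45 differed by 0.96 in wt and 1.03 in ko (adjusted p = 0.014), Gins2 by 0.85 and 1.06 (adjusted p = 0.016) and Mcm10 by 0.68 and 0.92 (adjusted p = 0.024). Gins4, another GINS subunit, differed by 0.45 and 0.58 and did not pass the test (adjusted p = 0.053).

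The polymerases divide the work: polymerase alpha with its primase lays down primers, polymerase delta extends the lagging strand and polymerase epsilon the leading strand. Of the 8 genes, 7 rose in CD8-equivalent DCs. Pole2, the second subunit of polymerase epsilon, read 8.16 and 7.89 in CD4-equivalent and 9.14 and 9.36 in CD8-equivalent DCs of wt and ko (1.22 ± 0.16 (SE), adjusted p = 0.016). The catalytic subunit Pole differed by 0.73 and 1.24 (adjusted p = 0.024).

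Prim1, the catalytic primase subunit, read 8.50 and 8.50 on the CD4-equivalent arrays, which agree to within 0.01, and 9.41 and 9.87 on the CD8-equivalent ones (1.14, adjusted p = 0.017). Its partner Prim2, the large primase subunit, differed by less, with 0.45 and 0.73 (adjusted p = 0.048). Among the delta subunits, Pold2 differed by 0.98 and 1.10 (adjusted p = 0.013) and the catalytic Pold1 by 0.59 and 0.55 (adjusted p = 0.039). Prim2 and Pold1 missed the threshold after cyclic loess (adjusted p = 0.054 and 0.058).

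The accessory subunit Pola2 of polymerase alpha rose (0.67 and 0.91, adjusted p = 0.024). The catalytic subunit Pola1 did not pass the test (adjusted p = 0.13). Pola1 read 8.87 and 9.06 on the wt CD4- and CD8-equivalent arrays and 8.40 and 9.46 on the ko ones. Its arrays still ordered by subset, but the difference was 0.19 in wt and 1.06 in ko, the most unequal pair of the 46.

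Pcna is the ring that tethers polymerases to DNA, Rfc1 to Rfc5 form the loader that opens it, and Rpa1 and Rpa2 coat single-stranded DNA. Of these 8 genes 5 rose, and their median difference of 0.65 was the lowest of any functional group of the members. Rfc4 read 9.67 and 9.79 in CD4-equivalent and 10.54 and 10.79 in CD8-equivalent DCs of wt and ko (adjusted p = 0.016). Rfc3 differed by 0.73 and 1.14 (adjusted p = 0.023), Rfc5 by 0.77 and 0.86 (adjusted p = 0.020) and Rfc2 by 0.54 and 0.53 (adjusted p = 0.044, but 0.062 after cyclic loess and 0.052 after centring on the 75th percentile).

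Rfc1, the large loader subunit, differed by 0.31 and 0.48 and did not pass (adjusted p = 0.093). Pcna did not pass either: it read 12.39 and 12.32 in CD4-equivalent and 12.74 and 12.78 in CD8-equivalent DCs of wt and ko, a difference of 0.40 ± 0.12 (SE) (adjusted p = 0.085). A further Pcna probe set gave readings within 0.01 of these on every array. Rpa2 rose (0.66 and 0.86, adjusted p = 0.024), whereas Rpa1 differed by 0.38 and 0.70 (adjusted p = 0.063).

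Fen1, the flap endonuclease, and Lig1, the ligase, join Okazaki fragments, and both rose in CD8-equivalent DCs. Fen1 read 7.92 and 7.88 on the CD4-equivalent and 8.90 and 9.03 on the CD8-equivalent arrays of wt and ko (1.06 ± 0.12 (SE), adjusted p = 0.013). Lig1 differed by 0.90 in wt and 1.25 in ko (adjusted p = 0.016).

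All 5 genes of nucleotide supply rose. Rrm2, the S-phase-limited subunit of ribonucleotide reductase, read 9.58 and 9.47 in CD4-equivalent and 10.63 and 10.76 in CD8-equivalent DCs of wt and ko, 2.07-fold and 2.45-fold (adjusted p = 0.012). Its partner Rrm1, the large subunit, differed by 0.70 and 0.82 (adjusted p = 0.023). Dut, which removes dUTP from the nucleotide pool, differed by 0.93 and 1.36 (adjusted p = 0.016), and the thymidylate synthase gene Tyms by 0.77 and 1.27 (adjusted p = 0.023).

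Tk1, the S-phase thymidine kinase, was the member whose subset difference was most clearly smaller in ko (0.62) than in wt (0.80, adjusted p = 0.027). Tk1 read 8.50 and 8.87 in CD4-equivalent and 9.30 and 9.49 in CD8-equivalent DCs of wt and ko. A further Tk1 probe set gave 0.87 in wt and 0.85 in ko.

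The chromatin factors rose as a set of 4. Chaf1a and Chaf1b, the large subunits of the histone chaperone that deposits new nucleosomes, differed by 0.71 and 0.83 in wt and 1.11 and 1.19 in ko. Uhrf1, which brings the maintenance methyltransferase to copied DNA, read 9.001 and 8.91 in CD4-equivalent and 9.86 and 10.24 in CD8-equivalent DCs of wt and ko (adjusted p = 0.019). Tipin, a fork protection factor, differed by 0.84 and 1.23 (adjusted p = 0.018).

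The regulators that start S phase were less uniform. Ccne1 and Ccne2, the E cyclins that activate Cdk2, and E2f1, an activator of the G1/S genes, rose. Ccne2 differed by 0.63 and 0.82 (adjusted p = 0.026), E2f1 by 0.68 and 1.04 (adjusted p = 0.024) and Ccne1 by 0.45 and 0.75 (adjusted p = 0.048, but 0.052 after cyclic loess). E2f2, a further activator E2F, went against the other 45. It read 9.25 on the wt CD4-equivalent array and 8.46, 8.39 and 8.32 on the wt CD8-, ko CD4- and ko CD8-equivalent arrays, so 1 array stood above 3 that lay close together. Its subset difference of -0.80 in wt and -0.066 in ko did not pass the test (adjusted p = 0.21).

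Across the 46 members, the subset differences of wt and ko, which share no array, had a Pearson r of 0.77 and a Spearman rho of 0.71, and both were 0.69 over the 45 members without E2f2. The points share the normalization that set all 4 arrays on 1 scale, and members are not independent replicates.

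**Figure D2:**
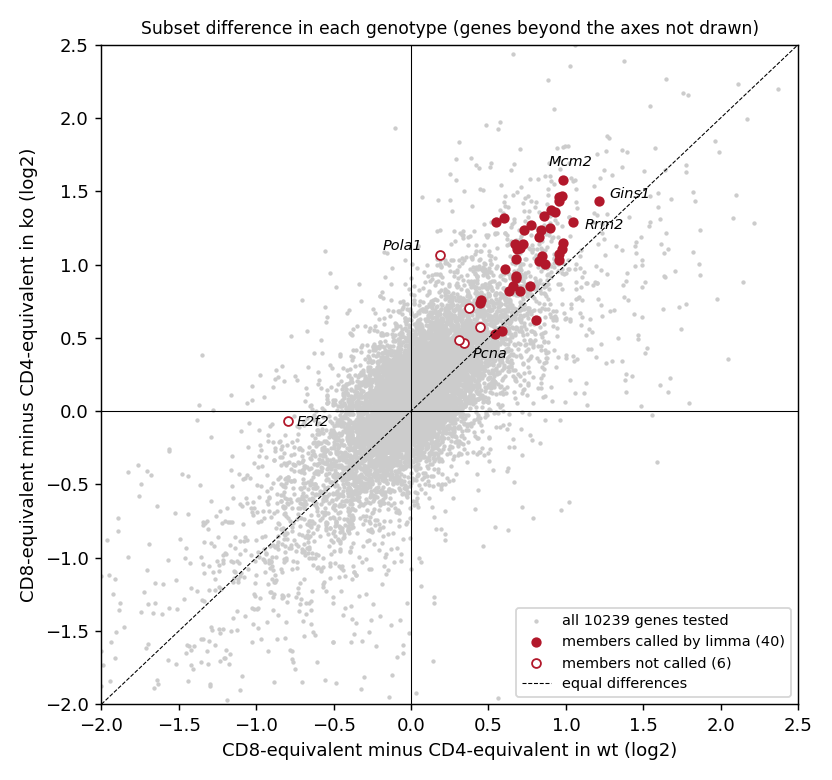
Difference between CD8-equivalent and CD4-equivalent DCs (log2) in wt (horizontal axis) and in ko (vertical axis); grey points are the genes tested, filled red points the 40 members called by limma and open red points the 6 not called, and the dashed line marks equal differences. The members other than E2f2 lie to the upper right of the origin, most of them above the dashed line.

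Because so many members moved together, the promoters were searched for the sequence that E2F factors bind, spelled as the octamers TTTCCCGC, TTTCGCGC, TTTGCCGC and TTTGGCGC on both strands, with overlapping matches counted separately. The windows came from RefSeq (GRCm38.p6) and ran 300 bases, from 250 before the transcription start to 50 after it. Of the 46 members, 37 had a window, and 14 of these (37.8%) held at least 1 octamer, against 704 of 27025 genes (2.6%). The CCAAT box, searched on both strands and not contained in any of these octamers, stood in 22 of 37 (59.5%), against 41.1% of all genes. The mitosis genes, described further on, had the octamer in 3 of 33 windows (9.09%) and CCAAT in 25 (75.8%). Such a match, or its absence, is a description of letters and not of binding.

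Among the 14 members with an octamer the median subset difference was 0.93, and 12 rose. Among the 23 without it the median was 0.91, and 20 rose. The members with and without these letters thus had nearly equal medians. The windows below show the licensing genes Mcm5, Mcm6 and Cdc6 and the loader gene Rfc3, which hold octamers close to or before the start, beside Mcm2, which had the largest difference of the licensing genes and holds none of these letters. Each runs from 200 bases before the start to base 30 from it, 5′ to 3′ on the gene's strand, and capitals mark the octamers.
Mcm5 (chr8:75109309-75109538, plus strand): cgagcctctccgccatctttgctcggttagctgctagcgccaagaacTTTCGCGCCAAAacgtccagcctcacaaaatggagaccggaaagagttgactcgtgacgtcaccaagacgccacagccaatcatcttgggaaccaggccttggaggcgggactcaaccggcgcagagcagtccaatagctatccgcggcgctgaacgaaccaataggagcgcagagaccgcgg
Mcm6 (chr1:128359676-128359905, minus strand): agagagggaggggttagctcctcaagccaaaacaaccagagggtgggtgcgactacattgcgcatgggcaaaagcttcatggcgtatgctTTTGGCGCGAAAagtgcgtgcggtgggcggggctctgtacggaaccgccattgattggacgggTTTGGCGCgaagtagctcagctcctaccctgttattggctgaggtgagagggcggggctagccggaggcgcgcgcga
Cdc6 (chr11:98907951-98908180, plus strand): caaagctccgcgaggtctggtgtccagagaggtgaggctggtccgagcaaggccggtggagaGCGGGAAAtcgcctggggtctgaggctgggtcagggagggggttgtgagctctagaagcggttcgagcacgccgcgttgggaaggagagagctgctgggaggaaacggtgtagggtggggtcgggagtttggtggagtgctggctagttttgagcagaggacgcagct
Rfc3 (chr5:151651179-151651408, minus strand): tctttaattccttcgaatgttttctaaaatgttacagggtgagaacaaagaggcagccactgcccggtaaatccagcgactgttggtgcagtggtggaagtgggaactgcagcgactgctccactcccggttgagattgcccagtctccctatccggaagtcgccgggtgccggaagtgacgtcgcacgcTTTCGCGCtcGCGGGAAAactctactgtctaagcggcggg
Mcm2 (chr6:88898751-88898980, minus strand): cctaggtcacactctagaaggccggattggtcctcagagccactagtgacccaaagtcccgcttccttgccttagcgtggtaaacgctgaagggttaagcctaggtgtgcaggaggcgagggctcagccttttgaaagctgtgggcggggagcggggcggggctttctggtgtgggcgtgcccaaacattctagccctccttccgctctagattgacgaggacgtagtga

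In Mcm5 and Mcm6 the capitals hold overlapping octamers of opposite strands that form 1 run, and Mcm6 carries a further octamer nearer the start. The Rfc3 octamers lie on either side of its start. The genes without an octamer include members that moved as far as those with one, such as Mcm2, Fen1 and Rrm2.

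Other genes of the pathway, listed by name in the same way, had a lower median. Of 46 other replication genes 44 were tested, and 24 rose in CD8-equivalent DCs and 0 fell, with a median of 0.57. The fork protection partner of Tipin, Timeless, had the largest difference (0.94 in wt and 1.79 in ko, adjusted p = 0.024), followed by the chromatin remodeller Hells (0.96 and 1.65, adjusted p = 0.020) and the clamp loader gene Dscc1 (0.74 and 1.45, adjusted p = 0.029). Ticrr and the Dbf4-dependent kinase Cdc7, which fire origins, differed by 1.03 and 1.02 (adjusted p = 0.015 and 0.025). The dCMP deaminase Dctd, the histone chaperone Nasp and the clamp loader gene Chtf18 were also called, with 1.01, 0.94 and 0.89.

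Of 36 genes of G1/S control and checkpoint, 31 were tested and 9 rose, with a median of 0.46. Cdk6, which phosphorylates Rb in G1 phase, read 9.47 and 9.84 in CD4-equivalent and 10.87 and 11.61 in CD8-equivalent DCs of wt and ko (adjusted p = 0.0079). Its difference of 1.58 exceeded that of every replication member. The replication checkpoint kinase Chek1 differed by 1.06 and 1.57 (adjusted p = 0.015), the repressor E2f7 by 0.83 and 1.03 (adjusted p = 0.017) and E2f3, an activator like E2f1 and E2f2, by 0.72 and 0.70 (adjusted p = 0.024). The phosphatase gene Cdc25a, the inhibitory kinase gene Wee1, the ubiquitin ligase gene Skp2 and the inhibitor gene Cdkn2c were called as well.

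Mitosis genes, whose mRNA peaks after S phase, were also higher in CD8-equivalent DCs. Of 40 such genes 39 were tested, 26 rose and 0 fell, with a median of 0.59. Kif2c, a kinesin that takes microtubules apart at centromeres, differed by 1.06 and 0.97 (adjusted p = 0.013), the spindle checkpoint gene Mad2l1 by 1.10 and 0.85 (adjusted p = 0.016) and the checkpoint kinase gene Ttk by 0.80 and 0.88 (adjusted p = 0.018). The median was 0.64 in wt and 0.61 in ko, whereas that of the replication members was 0.73 and 1.07. Whether the lists differ in this respect was not tested.

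Markers of other cells moved with the subsets as well, and their part in the replication result was not tested. Of 12 stem and progenitor markers tested, 5 rose in CD8-equivalent DCs and 0 fell. Myb, a transcription factor of proliferating progenitors, read 7.63 and 8.74 in CD4-equivalent and 10.00 and 10.93 in CD8-equivalent DCs of wt and ko, and Kit, the stem cell factor receptor, 8.11 and 8.24 against 9.76 and 9.16. Flt3, which conventional DCs also express, supplied most of the summed unlogged level of the 15 measured markers on the wt CD4-equivalent array. Without Flt3 the sum of the other 14 was 1334 and 2607 in CD4-equivalent and 3058 and 5718 in CD8-equivalent DCs of wt and ko, and with it 5039 and 5636 against 6477 and 9543. Gata2, Ms4a3 and Cebpe lay below the floor on every array.

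Of 9 plasmacytoid DC markers tested, 6 rose and 1 fell, although the sort excluded B220+ cells. Their summed unlogged level was 5307 and 9796 in CD4-equivalent and 11856 and 14082 in CD8-equivalent DCs of wt and ko. Ly6d had the largest difference (3.46), and Irf7 was the gene that fell (-1.02). Spib also lay below 0 (-0.51) but was not called. Siglech, a defining marker, read 9.88 and 11.28 against 11.34 and 11.76 and was not called by limma (adjusted p = 0.062). Monocyte and macrophage markers ran the other way, with 4 of 10 tested lower in CD8-equivalent DCs and 0 higher. Their sum was 24196 and 23258 in CD4-equivalent and 15255 and 9900 in CD8-equivalent DCs.

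Neutrophil markers set the ko CD4-equivalent array apart, with a summed unlogged level over 12 measured markers of 4118, against 1029, 373 and 349 on the wt CD4-, wt CD8- and ko CD8-equivalent arrays. Of 10 tested, 2 were called lower in CD8-equivalent DCs, Csf3r and Mmp8. These did not share the rise on the ko CD4-equivalent array. Csf3r read 7.83 and 7.09 and Mmp8 8.48 and 7.79 on the wt and ko CD4-equivalent arrays. The 6 measured erythroid and megakaryocyte markers lay below the floor on every array, and so did all but Cd79b of 9 measured B, T and NK cell markers.

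Between the genotypes, no replication gene passed the test. In limma's genotype test 0 of 46 members were called, where 0.166% of all genes tested were, and 0 members had an unadjusted p under 0.05, against 1599 of the 10239 genes. With so few genes called in all, a count of 0 does not set the members apart. The test sees only a difference common to both subsets, and opposite differences offset each other in it. As deposited, 31 members lay below 0 in CD4-equivalent and above 0 in CD8-equivalent DCs, against 2661 of all genes tested. After cyclic loess 19 members did, and after centring on the 75th percentile 20. With limma's trended and robust prior, which called 307 genes in all, the count of members was again 0. The median of the members over both subsets was 0.09, against -0.04 for all genes. The lowest adjusted p belonged to Cdc45 (0.30 ± 0.12 (SE), adjusted p = 0.32).

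In CD8-equivalent DCs, ko minus wt, 43 of 46 members lay above 0, where 50.7% of all genes compared did, and the median was 0.22 against 0.004 for all genes. No member reached 2-fold in either direction, against 1.14% of all genes higher and 1% lower. The licensing genes Orc1 (0.55) and Cdc6 (0.43), the polymerase epsilon gene Pole (0.52) and the primase gene Prim1 (0.46) had the largest values. Rfc2 (-0.080), Ccne1 (-0.16) and E2f2 (-0.14) were the 3 below 0. These are differences of single arrays without a replicate check. The typical residual SD of a gene's value on an array was 0.13, and a difference between arrays scatters more. This SD comes from how unequal the subset differences of wt and ko are over all genes tested, not from replicates.

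Markers of other cells differed between the same pair of CD8-equivalent arrays. Of 11 stem and progenitor markers compared, 9 lay above 0 and 5 were at least 2-fold higher in ko, with a median of 0.97. The 2 below 0 were Kit (-0.60) and Cd34 (-0.086). Hoxa9, a homeobox gene of stem and progenitor cells, read 6.57 in wt and 9.59 in ko CD8-equivalent DCs and 5.36 and 8.82 in CD4-equivalent DCs, and it rose in limma's genotype test (adjusted p = 0.0095). Of 9 monocyte and macrophage markers compared, 8 read lower in ko CD8-equivalent DCs, 6 of them by 2-fold or more, and the median was -1.31. The part of such cells in the replication values was not tested.

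On the CD4-equivalent arrays, ko minus wt, 12 of 45 members lay above 0, where 36.2% of all genes compared did, and the median of -0.07 was near the -0.08 of all genes. Orc1 was left out because it lay below the floor on both arrays. The direction did not survive another scaling, since 24 members lay above 0 after cyclic loess and 23 after centring on the 75th percentile. No member reached 2-fold, against 1.39% of all genes higher and 0.952% lower. E2f2 (-0.87), Mcm4 (-0.54), Pola1 (-0.47) and Ccne1 (-0.47) stood lowest, and Tk1 (0.37), Cdc45 (0.26) and Pold1 (0.24) highest.

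Several marker lists had a median above 0 in ko minus wt CD4-equivalent DCs, and their part in the replication values was not tested. Neutrophil markers had a median of 2.42 over 10 compared. Of these 8 were at least 2-fold higher and 2 lay below 0, Csf3r (-0.74) and Mmp8 (-0.69). Stem and progenitor markers had a median of 0.95 over 11. Plasmacytoid DC markers had a median of 0.65 over 9, of which 8 lay above 0, 3 of them at least 2-fold higher. The 1 below was Irf7 (-0.26). CD8-equivalent DC markers had a median of 0.98 over 9 compared, of which 7 lay above 0 and 2 below. Clec9a stood at 3.07, Cadm1 at 2.67, Irf8 at 1.29 and Cd24a at 1.00. Xcr1 stood at 0.49, Id2 at 0.04, Batf3 at -0.036 and Wdfy4 at -0.29. The subset difference of these CD8-equivalent DC markers had a median of 1.76 in wt and 0.73 in ko, the reverse of the order of the replication members (0.73 and 1.07).

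Mitosis genes gave other values in the same arrays. All 39 measured mitosis genes lay above 0 in ko minus wt CD4-equivalent DCs, with a median of 0.42, and 38 of 39 did in CD8-equivalent DCs, with a median of 0.34. After cyclic loess these counts were again 39 and 38. The other replication genes resembled the members, with 13 of 43 above 0 in CD4-equivalent DCs (median -0.11) and 33 of 43 in CD8-equivalent DCs (median 0.21). In limma's genotype test 0 mitosis genes and 0 other replication genes were called, where 0.166% of all genes tested were. An unadjusted p under 0.05 was found for 25 of 39 mitosis genes and 6 of 44 other replication genes. Of all 10239 genes tested, 1599 had one.

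**Figure D3:**
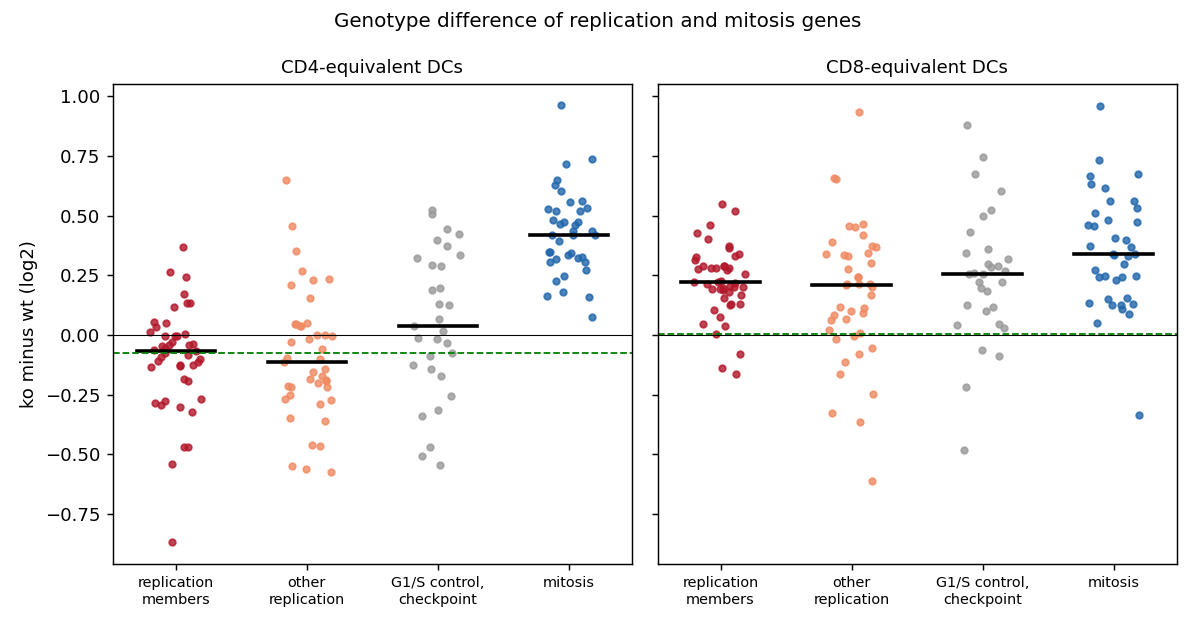
Difference between ko and wt (log2, vertical axis) of single genes in CD4-equivalent (left) and CD8-equivalent DCs (right) for the replication members, the other replication genes, the G1/S control and checkpoint genes and the mitosis genes; a point is a gene at or above the floor, the black bar the median of a list and the green dashed line the median of all genes compared. The replication medians are -0.07 and 0.22, and the mitosis medians 0.42 and 0.34.

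As deposited, the ko arrays held the extreme values of 31 of 46 members, but of 19 after cyclic loess and 20 after centring on the 75th percentile. For these members the lowest value was that of the ko CD4-equivalent array and the highest that of the ko CD8-equivalent array, an order that 16.1% of all genes tested had as deposited, 9.43% after cyclic loess and 8.62% after centring. The subset difference was larger in ko than in wt for 43 of 46 members, against 60.5% of all genes. The exceptions were Pold1, Rfc2 and Tk1. The count of larger differences in ko was 42 and 41 under these scalings. The median of this interaction was 0.32 for the members, 0.24 for other replication genes and 0.17 for G1/S control and checkpoint genes. For all genes it was 0.07, and for mitosis genes -0.06. The interaction lay above 0 for 37 of 44 other replication genes, 25 of 31 G1/S control and checkpoint genes and 14 of 39 mitosis genes. None of these values was tested, because a fit with an interaction leaves no residual on 4 arrays.

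Pola1 (0.87), Mcm4 (0.74) and E2f2 (0.73) had the largest interaction values, though in E2f2 it came from a value that was high on the wt CD4-equivalent array alone. The ko minus wt differences of CD4- and CD8-equivalent DCs, which share no array, had a Pearson r of 0.35 and a Spearman rho of 0.23 over the 46 members.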

How the data were processed

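Each of the 4 samples is 1 Affymetrix array. The authors deposited a log2 value for each probe set and array, made with RMA and Partek per the submitters' processing notes, which give no versions. The log base was inferred from the range, 3.52 to 14.3. Of 35399 probe sets 21789 carried 1 symbol in the platform annotation, 1621 several and 11989 were unnamed here. A gene's value is that of its single-symbol probe set with the highest mean; 44 members had 1 such set and 2 had several. All 46 members matched RefSeq by gene ID.

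Differences between single arrays were taken without a test, for genes whose higher value reached the floor. Subset and genotype effects were fitted in R 4.3.3 with limma 3.58.1 (lmFit, eBayes, additive model over all 4 arrays, two-sided, Benjamini-Hochberg over 10239 genes). The prior had 3.98 degrees of freedom. Tested on simulated arrays of 10239 genes with a genotype difference, the fit recovered 83 of 100 genes that differed by 1 and 99 of 100 that differed by 2 (log2), with 16 false calls among 198. The simulated noise was independent, took its spread from this same fit and held no subset effect or interaction. The recovery therefore does not measure the sensitivity on the real arrays. Alternatives were another normalization, centring, probe set rule, floor and prior.

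The members and lists were chosen with earlier results of these data known. All members may be named; of other lists, genes called by limma, at most 8, otherwise those of largest effect, and defining markers. The number of arrays limits the precision.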

Additional observations from a re-analysis of the deposited data

Results flagged for a closer look

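The median of ko minus wt over the members was 0.29 higher (log2) in the CD8-equivalent DCs than in the CD4-equivalent ones. The difference between the subsets was not tested, since each group is 1 array, and the size depends on the scaling. In CD4-equivalent DCs the members' median was -0.07, close to the -0.08 of all genes, and it was 0.03 after cyclic loess and 0.0089 after centring on the 75th percentile. In CD8-equivalent DCs it was 0.22, 0.21 and 0.19.

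Among single members, Mcm2 and Pola1 were lower in ko CD4-equivalent and higher in ko CD8-equivalent DCs, each by more than 0.26, which is 2 times the typical residual SD. That SD is of a single array value and rests on the same kind of gap between the subsets over all genes tested, not on replicates. A difference between arrays scatters more, so 0.26 is a lenient mark. The gap between the subsets was 0.59 for Mcm2 and 0.87 for Pola1, and neither was tested. After cyclic loess the values were -0.23 and 0.29 for Mcm2 and -0.36 and 0.39 for Pola1, so the opposite directions of these genes did not turn with that scaling. The Mcm2 value in CD4-equivalent DCs then fell short of 0.26, and did so after centring on the 75th percentile (-0.23).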

How the results depend on the processing

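The subset effect kept its direction for each replication gene under the 6 alternatives run, E2f2 staying negative; the raised floor left out Orc1. The number of members called was 40 as deposited, 35 after cyclic loess, 39 after centring on the 75th percentile, 40 with averaged probe sets, 40 with a floor of 6.68, 44 with the trended robust prior and 30 without a floor, where 946 of 19938 genes were called in all.

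The number at 2-fold in ko was 18 after cyclic loess and 19 after centring. The number above 0 in ko minus wt CD4-equivalent DCs was 24 and 23 under these scalings. All genes called for subset were 55.7% higher as deposited, 48.9% after cyclic loess and 45.7% after centring. Calls for genotype over all genes were 205 after centring, 120 with the raised floor, 3 without a floor and 307 with the trended prior; members called were 0 under each.

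Genotype effects that changed sign were all near 0. After centring they were 0.017 for Mcm2, 0.0077 for Pcna and 0.00034 for Pole2. After cyclic loess they were 0.033 for Mcm2, 0.010 for Mcm3, 0.00075 for Pcna, 0.011 for Pola1, 0.022 for Pole2 and 0.0027 for Prim2. The cause was not tested. The additive model compares the subsets within each genotype. The labels name no mouse or culture by which the arrays could be paired further. Leaving out an array left no residual degree of freedom, so the pairwise differences stand in for it. Signal near background compresses differences, which bears on Orc1.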
